A study of Pomacea canaliculata with 36 samples.

Results

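The comparison described here is that of the apple snail eye stalk 1 day after amputation with the intact stalk, chosen as the 4 libraries labelled 1dpa (days post amputation) and the 4 labelled Intact, 8 of the 36 libraries of the series. *Pomacea canaliculata*, the apple snail, is a freshwater gastropod that carries an eye at the tip of a stalk on the head. Polyadenylated RNA of the eye stalk was extracted with Trizol, sequenced and counted per gene in 9 groups of 4 libraries that followed regeneration. Both groups compared here were eye stalk by their labels, and amputation was the difference the labels give between them. No strain, sex, age or other treatment is named, nor how much of the stalk was collected, and the labels do not say if each library was a different animal. The p-values thus measure library-to-library spread, part of which could be technical.

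The eye of this snail is of the camera type, in which a cornea and lens lie in front of a cup of retina, as in vertebrates. Animals that regrow a lost organ close the wound first, and then build new tissue from cells that divide and differentiate near the stump. Amputation removes cell types of the eye and injures the tissue that is left. In bulk RNA, fewer cells of a type and less RNA per cell cannot be told apart. The genes carry only locus identifiers in the count table and in the RefSeq gene table used here. No product, role or cell type can be given for them, the lists of eye, nerve and wound genes could not be applied, and the labelled tissue could not be checked against markers.

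The Intact libraries held 24503482, 25688319, 22403557 and 25583681 counts and the 1dpa libraries 26154794, 27268258, 24878971 and 21797015, so the groups overlapped in depth. Values are given as CPM, counts divided by TMM-scaled library sizes, and 1 CPM stood for at least 19.3 counts in these libraries. Libraries of a group varied more at 1dpa than in Intact, with a common biological coefficient of variation of 0.242 against 0.174. A pair of libraries of the same group differed by 5.39% to 12.1% of their counts at 1dpa, and by 3.90% to 8.91% in Intact, taking the share of counts that would have to change gene to make them equal. An Intact and a 1dpa library differed by 34.2% to 38.8%, so the 16 pairs across the groups lay above all 12 pairs within them.

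Most genes were measured at another level 1 day after amputation. Of 17341 genes tested, 76.9% passed the test (edgeR quasi-likelihood test, adjusted p below 0.05), 37.2% higher and 39.7% lower at 1dpa. For 33% of the genes all 4 libraries of 1dpa lay above all 4 of Intact and the gene was called, and for 35.3% all lay below. Differences of 2-fold or more were more often falls, with 18.3% of genes higher and 27.3% lower, and so were differences of 8-fold or more, with 3.92% higher and 7.44% lower. The 680 genes that were higher by 8-fold or more held 0.702% to 0.845% of the counts in Intact libraries and 11.3% to 14.6% at 1dpa. The 1290 genes lower by that much held 12.6% to 15.5% of the counts in Intact libraries and 0.367% to 0.454% at 1dpa. These shares describe genes picked by this same comparison and are no further test of it.

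**Figure D1:**
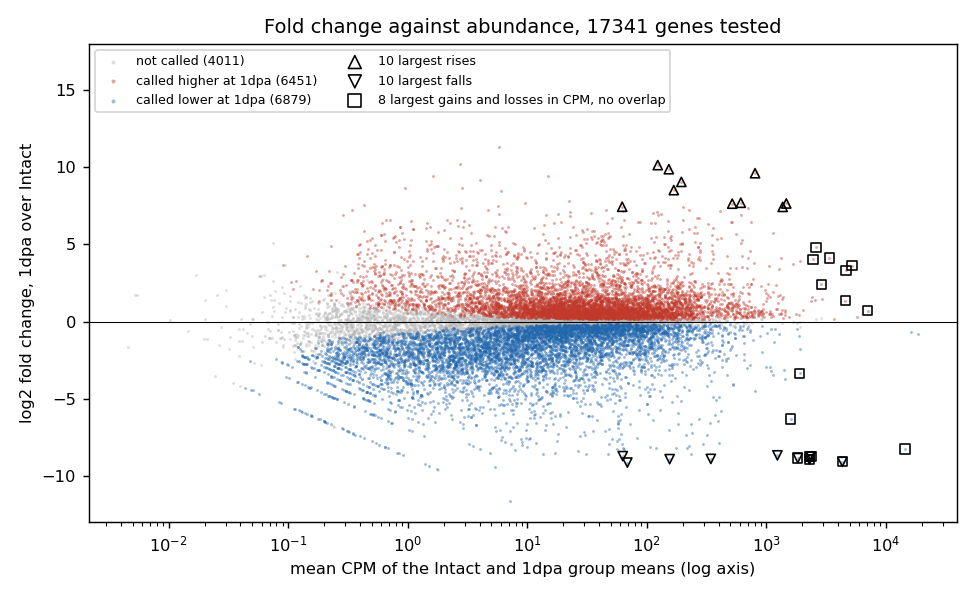
Log2 fold change of 1dpa over Intact against mean CPM (log axis) for 17341 genes, in colour where the adjusted p was below 0.05. The open symbols mark the 10 largest rises and the 10 largest falls at 50 CPM or more in the higher group. They also mark the 8 largest gains and losses in CPM, all among genes whose groups did not overlap. The 10 rises reach a log2 fold change of 10.15, and the 10 falls lie together between -9.14 and -8.67.

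The most abundant genes differed between the groups. Of the 10 most abundant genes of the intact stalk, 8 were lower and 2 higher at 1dpa, and 6 of the 10 fell by 100-fold or more. Picking genes by their Intact level favours falls. Of the 10 most abundant genes at 1dpa, all but LOC112556452 and LOC112556451 were higher there than in Intact, a choice that favours rises. Of the 10 most abundant genes of each group 4 were shared, and of the 100 most abundant 46. The 10 most abundant genes of a library held 11.2%, 11.2%, 12.4% and 11.1% of its counts in the Intact libraries, and 7.56%, 8.47%, 7.97% and 6.73% at 1dpa. The groups did not overlap, with a difference of -3.78 percentage points (exact permutation test over all splits of 4 and 4 libraries, two-sided, p = 0.0286, as small as 4 against 4 can give, and 0.0286 adjusted by Benjamini-Hochberg over 3 such tests). For the 100 most abundant genes the share was 24.3 ± 0.842% and 22.3 ± 0.724% (SD, n = 4 each; exact permutation p = 0.0286). Fewer genes were detected at 1 CPM or more, 14994 ± 70.7 in Intact and 14075 ± 110.1 at 1dpa (SD, n = 4 each; exact permutation p = 0.0286).

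The direction of change went with abundance. Of 2253 tested genes with a mean below 1 CPM over both groups, 13.4% were higher and 43.5% lower at 1dpa, and of 4836 genes from 1 to 10 CPM 25.7% were higher and 50.5% lower. From 10 to 100 CPM, the class of 8050 genes, the balance turned, with 44.9% higher and 35.1% lower and a median log2 fold change of 0.13. Scaled by library size alone, that class leaned the other way, with 35.9% higher, 42.1% lower and a median of -0.07. Of 2116 genes from 100 to 1000 CPM 58.4% were higher and 28.7% lower, and of 86 genes at 1000 CPM or more 64% were higher and 27.9% lower, an order that held under each scaling tried. In the last class changes of 8-fold or more were as frequent upwards as downwards, at 13 genes each. The median of all log2 fold changes was -0.05 with TMM, -0.03 with RLE scaling and -0.24 with library size alone, a shift of all values that the counts cannot settle.

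**Figure D2:**
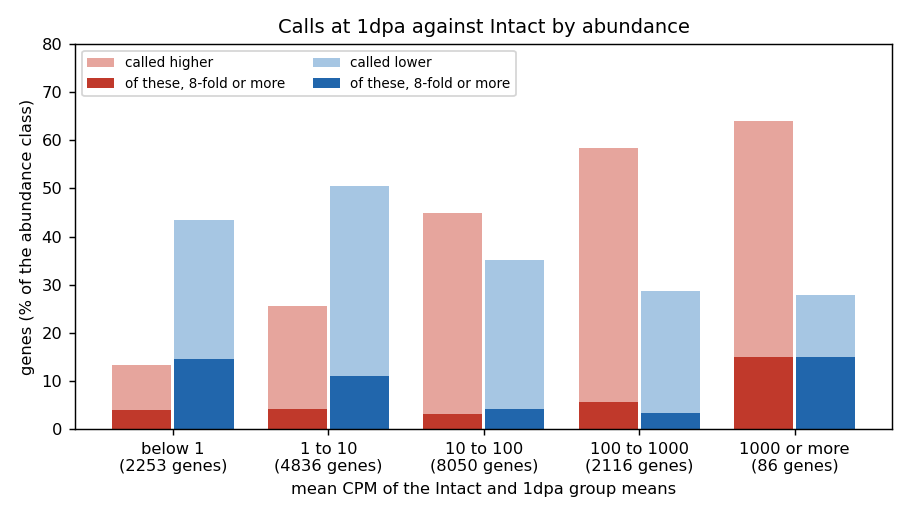
Share of genes called higher (red) or lower (blue) at 1dpa in 5 classes of mean CPM, as a percentage of the class, with dark bars for changes of 8-fold or more. The share called lower goes from 50.5% at 1 to 10 CPM to 27.9% at 1000 CPM or more, and the share called higher goes from 13.4% below 1 CPM to 64%.

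Among genes with at least 50 CPM in the higher group, the 10 largest falls had log2 fold changes from -9.14 to -8.67. That range is narrow because they were taken from the end of the ranking. Their levels in the intact stalk ran from 126.0 to 8666.5 CPM. LOC112558777 stood at 170.3, 123.9, 136.9 and 120.0 CPM in the Intact libraries and at 0.210, 0.630, 0.0435 and 0 CPM at 1dpa. It was nearly absent from every 1dpa library, with 22 counts in all 4 of them together, and its log2 fold change was -9.14 ± 0.462 (SE; adjusted p = 9.28e-18, edgeR). LOC112576458, the fourth most abundant gene of the intact stalk, stood at 11674, 7713, 8280 and 6998 CPM in Intact and at 2.14, 58.2, 1.39 and 0.311 CPM at 1dpa (log2 fold change -9.10 ± 1.19; adjusted p = 6.21e-08, edgeR). Replicate 2 was far above the other 1dpa libraries and still below every Intact library.

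Replicate 2 was also the highest 1dpa library for the rest of the 10 largest falls, by margins that differed between genes. LOC112563139 was at 4999, 4561, 4781 and 4052 CPM in Intact and at 4.41, 28.3, 1.96 and 1.97 CPM at 1dpa. LOC112560214 was at 882.9, 626.0, 658.5 and 584.1 CPM in Intact and at 0.420, 4.49, 0.305 and 0.155 CPM at 1dpa. LOC112567738, with the tightest values in Intact, stood at 2479, 2584, 2495 and 2359 CPM there and at 5.59, 14.9, 1.83 and 1.30 CPM at 1dpa. In all 10 of the largest falls replicate 2 held the highest level of the 1dpa libraries and replicate 1 the next highest. Replicate 3 was above replicate 4 in 8 of the 10, and below it in LOC112553742 and LOC112563139. Without 1dpa replicate 2 the 10 log2 fold changes lay between -12.61 and -9.57 and all were still called. The 1290 genes lower by 8-fold or more were less one-sided among the 1dpa libraries. Replicate 2 was the highest 1dpa library in 430 of them, replicate 3 in 313, replicate 1 in 307 and replicate 4 in 240. Among the Intact libraries replicate 1 was the highest in 710 of these genes, replicate 3 in 207, replicate 4 in 204 and replicate 2 in 169.

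**Figure D3:**
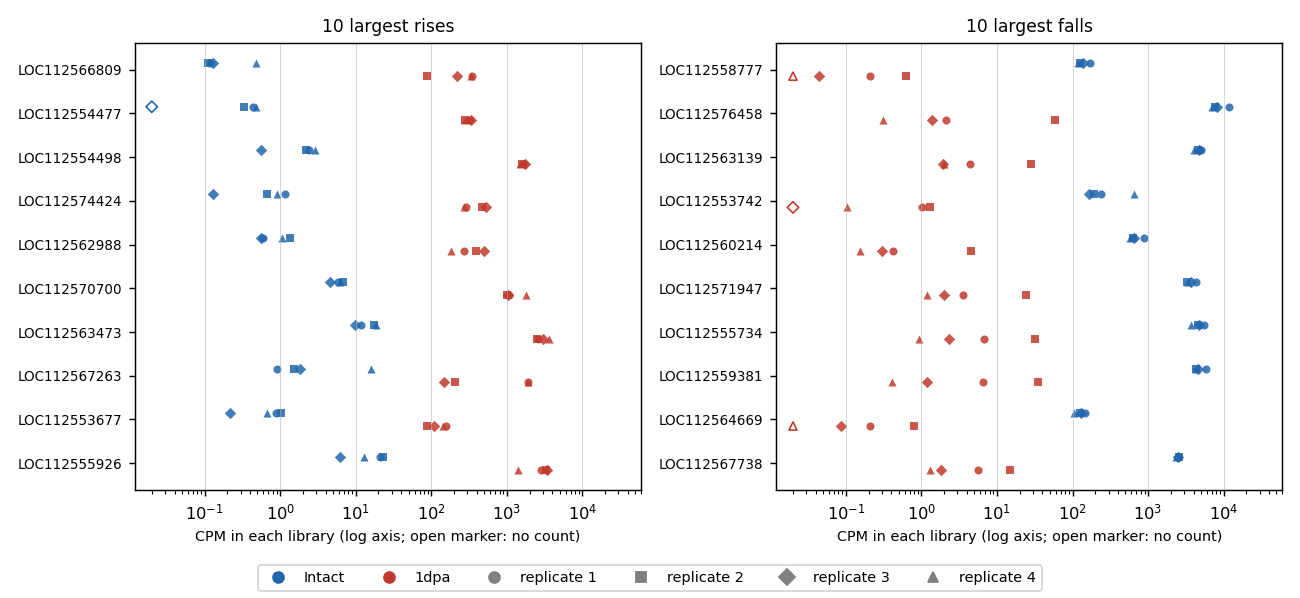
CPM (log axis) of the 10 largest rises and the 10 largest falls in each Intact (blue) and 1dpa (red) library, with the marker shape for the replicate and open markers for no count. No gene has overlapping groups, and among the falls replicate 2 is the highest 1dpa library and replicate 1 the next in all 10.

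In CPM rather than in fold, the largest single loss was that of LOC112562530, the most abundant gene of the intact stalk. It held 3.03% of all counts there on average and 0.00868% at 1dpa. Its libraries stood at 35627, 27418, 26656 and 26279 CPM in Intact and at 104.1, 231.9, 22.9 and 17.1 CPM at 1dpa (log2 fold change -8.26 ± 0.811; adjusted p = 1.91e-10, edgeR). Replicate 2 was again the highest 1dpa library and replicate 1 the next, and without replicate 2 the log2 fold change was -9.18. Of the 8 largest losses in CPM among genes whose groups did not overlap, 5 were also among the 10 largest falls in fold. This leaves out LOC112556452 and LOC112556451, 2 larger losses with overlapping groups. The 8 without overlap together made up 5.95% to 7.77% of the counts of an Intact library and 0.0289% to 0.0833% of those of a 1dpa library.

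Not all of the abundant genes fell as far. LOC112561876 went from 4286, 2703, 2999 and 3958 CPM in Intact to 289.4, 431.4, 360.8 and 274.9 CPM at 1dpa (log2 fold change -3.36 ± 0.348; adjusted p = 5.11e-10, edgeR). Each of its 1dpa libraries lay above all 1dpa libraries of the other 7 losses. LOC112563881 lay between these extremes, at 3319, 2934, 3253 and 3199 CPM in Intact and at 41.8, 53.8, 34.9 and 29.3 CPM at 1dpa (log2 fold change -6.31 ± 0.226; adjusted p = 4.07e-21, edgeR). LOC112556452 and LOC112556451, which ranked next after LOC112562530 in Intact, fell from 23643 to 13634 and from 19927 to 12699.5 CPM on average, log2 fold changes of -0.79 ± 0.219 and -0.65 ± 0.212 (adjusted p = 0.00168 and 0.00662, edgeR), and were the most abundant genes at 1dpa. The Intact libraries of LOC112556452 ran from 16557 to 30781 CPM and its 1dpa libraries from 6187 to 19151 CPM, so the groups overlapped, as did those of LOC112556451, at 13140.3 to 25925 and 5951 to 16952 CPM. These 2 genes were named for their abundance after their values had been seen, and reads that fit both of them cannot be separated here.

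The largest rises were in genes with means of 0.209 to 15.7 CPM in the intact stalk. LOC112566809 was at 0.119, 0.110, 0.130 and 0.476 CPM in Intact and at 349.4, 87.5, 218.0 and 335.9 CPM at 1dpa (log2 fold change 10.15 ± 1.33; adjusted p = 5.70e-08, edgeR). Without Intact replicate 4 the value was 11.00. Its lowest 1dpa library, replicate 2, was still far above its highest Intact library. LOC112554477 was at 0.437, 0.331, 0 and 0.476 CPM in Intact and at 326.0, 277.8, 339.8 and 282.3 CPM at 1dpa, 9.88 ± 0.892 on the log2 scale (adjusted p = 3.16e-11, edgeR). LOC112554498 was at 2.38, 2.21, 0.562 and 2.90 CPM in Intact and at 1675, 1576, 1714 and 1491 CPM at 1dpa, 9.62 ± 1.19 (adjusted p = 2.02e-08, edgeR). LOC112554477 and LOC112554498 each reached a similar level in all 4 libraries, and LOC112554498 moved from rank 13966 by abundance in Intact to rank 48 at 1dpa.

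Other large rises were uneven over the libraries. LOC112567263 stood at 1883, 204.3, 149.3 and 1905 CPM at 1dpa, far higher in replicates 1 and 4 than in replicates 2 and 3, and at 0.913, 1.51, 1.81 and 16.1 CPM in Intact, where replicate 4 was the high one. Its log2 fold change was 7.65 ± 1.24 (adjusted p = 2.22e-06, edgeR), and 9.55 without Intact replicate 4. LOC112574424 had the opposite order, at 284.0, 475.8, 526.2 and 274.1 CPM at 1dpa against 1.15, 0.663, 0.130 and 0.916 CPM in Intact, 9.06 ± 0.404 (adjusted p = 1.15e-18, edgeR). LOC112562988 followed it, at 273.8, 394.8, 498.5 and 179.9 CPM at 1dpa against 0.595, 1.36, 0.562 and 1.06 CPM in Intact. LOC112563473 reached 2584, 2472, 3047 and 3633 CPM from 11.8, 17.7, 9.76 and 18.6 CPM, the highest level of the 10 largest rises, and rose by 7.66 ± 0.604 on the log2 scale (adjusted p = 1.50e-12, edgeR). LOC112570700 reached 1083, 1007, 1024 and 1773 CPM from 5.83, 6.77, 4.54 and 6.19 CPM, with replicate 4 high, and LOC112553677 reached 157.6, 88.2, 109.0 and 142.4 CPM from 0.873, 1.03, 0.216 and 0.660 CPM. LOC112555926 reached 2835, 3336, 3385 and 1389.8 CPM from 21.0, 23.1, 6.13 and 12.7 CPM, with replicate 4 low. All 10 rises had log2 fold changes between 7.44 and 10.15.

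In CPM, the largest gains were in genes already well expressed in the intact stalk, and none of the 8 was among the 10 largest rises in fold. LOC112571578 rose from 808.2, 785.9, 748.2 and 772.1 CPM to 10302, 7366, 6496 and 14526 CPM at 1dpa, 3.63 ± 0.159 on the log2 scale (adjusted p = 3.52e-19, edgeR). LOC112565630 rose from 972.9, 775.8, 842.2 and 813.8 CPM to 9271, 6864, 6410.2 and 11376 CPM, 3.32 ± 0.139 (adjusted p = 1.27e-19). Both were highest in replicates 4 and 1 at 1dpa and hardly varied in Intact. LOC112558563 rose from 203.7, 156.3, 151.9 and 198.3 CPM to 4643, 5403, 6542 and 3613 CPM, 4.83 ± 0.185 (adjusted p = 1.68e-20, edgeR), the largest fold of the 8, with replicates 3 and 2 highest. LOC112573535 had the widest spread at 1dpa for its mean, at 3730, 5869, 7859 and 2019 CPM at 1dpa against 966.6, 871.2, 810.3 and 978.0 CPM in Intact, 2.43 ± 0.230 (adjusted p = 5.76e-11, edgeR). Its lowest 1dpa library was still above every Intact library.

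A small and very even gain was that of LOC112562047, which went from 5553, 5377, 5604 and 4982 CPM to 8507, 8698, 8754 and 9142 CPM (log2 fold change 0.71 ± 0.0721; adjusted p = 2.40e-10, edgeR). It was the fifth most abundant gene in Intact and the fourth at 1dpa. The 8 largest gains together made up 1.14% to 1.22% of the counts of an Intact library and 4.84% to 5.25% of those of a 1dpa library, so their sum was even over the libraries although single genes were not. Over the 680 genes higher by 8-fold or more, 1dpa replicate 4 held the highest level in 356, replicate 3 in 190, replicate 2 in 75 and replicate 1 in 59. No library decided the count of calls, which lay between 13036 and 13128 when each of the 8 was left out in turn.

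**Figure D4:**
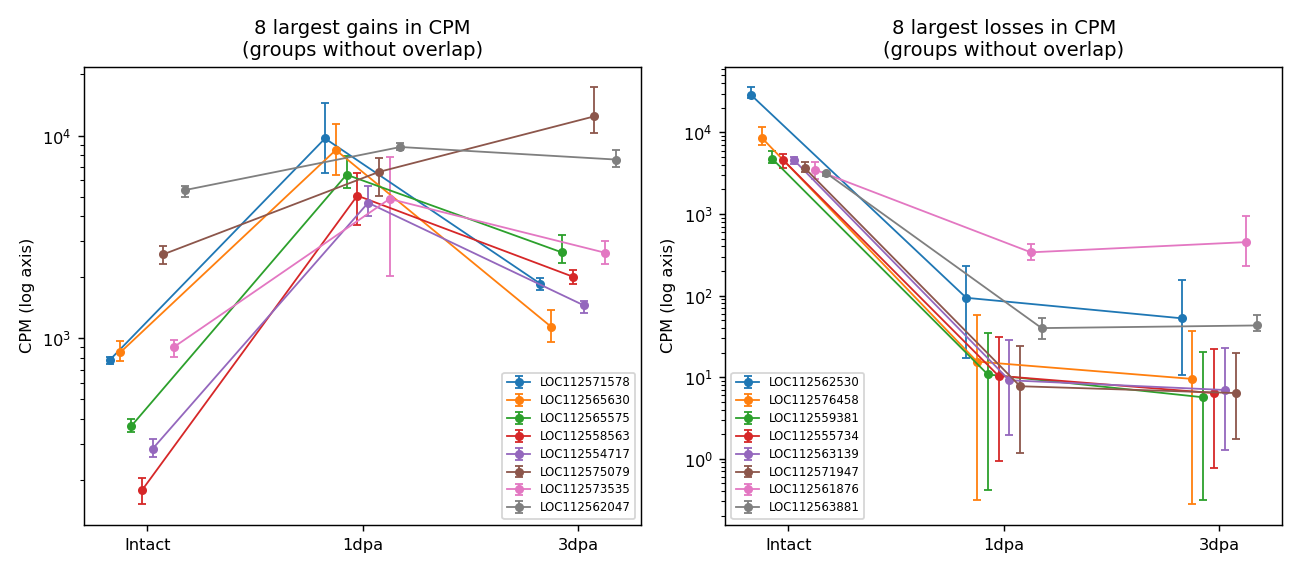
Mean CPM (log axis) of the 8 genes with the largest gain and the 8 with the largest loss between Intact and 1dpa, among genes whose groups did not overlap, with their level at 3dpa, where bars span the lowest and highest of 4 libraries. Of these groups the mean of each gain is highest at 1dpa apart from LOC112575079, which goes on to 12433 CPM, and the losses stay low at 3dpa.

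The shift in counts was carried by many genes. Taking shares of all counts, 35.7% of the counts of the stalk moved from genes that held less at 1dpa to genes that held more. In the plot of cumulative shares, 50% of the loss lay in 171 genes and 50% of the gain in 240 genes. LOC112562530 alone made up 8.47% of the loss, and the gene that gained most made up 2.23% of the gain. The top 8 genes, here with overlapping groups included, held 22.2% of the loss and 10.8% of the gain, and the top 100 held 43.7% and 36.3%. The difference between the courses of loss and gain describes these group means and was not tested.

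**Figure D5:**
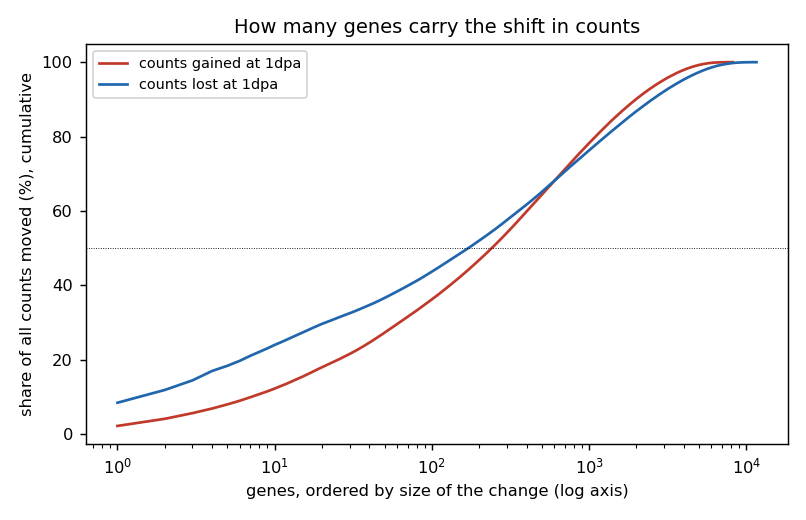
Cumulative share of the counts lost (blue) or gained (red) between Intact and 1dpa over genes ordered by the size of their change (log axis), from group means of the share of all counts. The line of losses starts at 8.47% for 1 gene and reaches 43.7% at 100 genes, above that of gains at 2.23% and 36.3%.

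Some genes were seen in only 1 of the groups. Of 21131 genes, 26 appeared at 1dpa alone and 58 in Intact alone. This asked for no count in the 4 libraries of 1 group and at least 3 counts in each library of the other. Most of these genes were low, with a median of 0.590 CPM for the first set and 0.443 CPM for the second, and 4 and 14 of them reached a mean of 1 CPM. In the first set 7 were called and in the second 33, and the others did not pass the filter for the test. The sets were picked by this same comparison, so these calls are no further test of it. Over all genes tested 76.9% were called. LOC112557630 led the first set, at 5.97, 18.7, 14.4 and 7.15 CPM at 1dpa, at least 395.6-fold higher than in Intact, where the floor is 3 counts over the group. LOC112558610 followed at 5.59, 3.82, 6.75 and 5.91 CPM, at least 189.0-fold higher. LOC112577424 led the second set, at 17.3, 11.3, 8.77 and 20.3 CPM in Intact and at least 439.9-fold lower at 1dpa, and LOC112556498 followed at 4.13, 3.87, 3.20 and 2.79 CPM, at least 106.5-fold lower. These bounds cover counting error only. Of the 26 genes of the first set 23 had a count at 3dpa, and of the 58 of the second 39 had one. A single count over the 4 libraries of 3dpa was enough here, so this does not show a return to an earlier level. LOC112557630 had 7 counts in all at 3dpa and LOC112558610 had 155, LOC112556498 had 2 and LOC112577424 had 0.

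Changes of the same direction lay side by side in the gene order of the RefSeq assembly. Of the tested genes, 7.66% were higher by 4-fold or more and 15.8% lower by 4-fold or more. A gene higher by 4-fold or more had such a neighbour in 46% of cases, against 11.3% of the other genes, and a gene lower by that much had one in 52.9% against 23.1%. Runs of 4 or more tested genes in a row numbered 23 for rises and 86 for falls. The longest run of rises held 10 genes, from LOC112560100 to LOC112560674, with log2 fold changes from 2.92 to 5.53 and a summed level of 15.0 CPM in Intact and 224.6 CPM at 1dpa. Within it LOC112558824 stood at 2.22, 0.957, 1.17 and 1.80 CPM in Intact and at 68.5, 68.4, 89.9 and 58.0 CPM at 1dpa. The longest run of falls held 11 genes, from LOC112554526 to LOC112553826, with log2 fold changes from -6.30 to -3.04. Its summed level was 186.6 CPM in Intact and 16.3 CPM at 1dpa. The -6.30 is the fitted value of LOC112554526, which had no count at 1dpa and only 0.259 to 0.440 CPM in Intact. The next largest fall of the run was -4.26, of LOC112553960. These runs were named after their values had been seen, and reads shared by near-identical neighbours cannot be told apart here.

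The next time point was 3dpa, and 1dpa was tested against it in the same fit to ask which levels differed between these time points. Of the 17341 genes, 55.5% differed between these groups, 26.6% higher and 28.9% lower at 1dpa. Differences of 2-fold or more made up 10.4% of genes upward and 11.8% downward, of 4-fold or more 3.58% and 2.75%, and of 8-fold or more 1.29% and 0.663%. The share of these calls that were higher at 1dpa was 47.9%, and 53.7% with RLE scaling and 36.1% with library size alone, as the median log2 difference of all genes moved from -0.05 to 0.02 and -0.19. All 10 of the largest rises were higher at 1dpa than at 3dpa, with log2 differences from 3.00 to 6.68 (adjusted p from 2.80e-13 to 0.000174, edgeR). These genes were picked by their levels in the same 1dpa libraries, which favours that direction. LOC112566809 came down from 247.7 ± 122 to 2.36 ± 1.69 CPM, and LOC112554477 from 306.5 ± 31.1 to 17.3 ± 8.36 CPM (SD, n = 4 each). Their means lay between 0.209 and 15.7 CPM in Intact and between 2.36 and 174.7 CPM at 3dpa.

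The largest falls did not separate 1dpa from 3dpa. None of the 10 differed between them by the test (log2 differences from 0.02 to 1.17, adjusted p from 0.284 to 0.989, edgeR). For all 10 the approximate 95% interval of the difference, from its standard error, reached beyond 2-fold, so a difference of that size was not excluded. The mean of LOC112571947 was 7.74 ± 11.0 CPM at 1dpa against 6.39 ± 9.06 CPM for 3dpa, and LOC112567738 at 5.91 ± 6.30 and 3.58 ± 5.27 CPM (SD, n = 4 each). Of the 8 largest gains in CPM 7 were higher at 1dpa than at 3dpa, LOC112562047 by a log2 difference of only 0.21 (adjusted p = 0.0155, edgeR), about as much as the scalings differ. The other, LOC112575079, rose from 6611 ± 1153 CPM at 1dpa to a 3dpa level of 12433 ± 3281 CPM, a log2 difference of -0.91 (adjusted p = 3.32e-05, edgeR), the opposite direction to the other 7. The test against 3dpa and that against Intact share the 1dpa libraries, on which the named genes were picked. That choice favours a 1dpa level above 3dpa for rises and gains, and below it for falls.

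The remaining genes could be bounded in part. Of the 4011 genes without a call, 2622, or 65.4%, had an approximate 95% interval of the fold change, from its standard error, that lay wholly within 2-fold either way. For the other genes without a call the interval reached beyond 2-fold, so a change of that size was not excluded.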

How the data were processed

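Raw counts of reads by gene, as deposited by the authors, were available for 36 libraries, and the submitters' processing notes name STAR. Its version, the annotation and genome build, the handling of multi-mapping reads and any use of strand are, in the sources used here, not given. All 21131 gene identifiers were found in RefSeq's table for assembly ASM307304v1, which was used only for which genes neighbour each other on 14 linkage groups and gives no product names. The 28 planned gene lists select members by product name or protein sequence, so they could not be applied, nor could the planned promoter and protein descriptions.

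The tests used edgeR 4.0.16 in R 4.3.3. Filtering by filterByExpr kept 17341 genes, with 99.98% or more of the counts in any of the 8 libraries. After TMM scaling, group means were fitted by glmQLFit (quasi-likelihood, robust) over all 36 libraries, which share 1 estimate of spread. Tests were two-sided with Benjamini-Hochberg adjustment over all genes and a threshold of 0.05. CPM are on TMM-scaled library sizes, and standard errors come from the F statistic. Single values per library were compared by exact permutation tests (scipy 1.17.1). The test was also run on simulated counts in which a small part of the genes changed, equally up and down. That setting is unlike these data, where 76.9% of genes were called, so it does not check the calls or the scaling here. No pair of libraries within a group agreed within sampling noise (lowest chi-square per degree of freedom 11.3). Same-numbered Intact and 1dpa libraries did not deviate together (r from -0.10 to 0.03 across genes), so the replicate number was not used as a pair.

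Genes were named by rule from those called without overlap between the groups: the 10 largest rises and falls with at least 50 CPM in the higher group, the 8 largest gains and losses in CPM, and the 2 most abundant genes seen in only 1 group in each direction. The comparison, lists and rules were chosen with earlier results of these data known. Alternatives were RLE scaling or library size alone, no filter or 1 CPM in 4 libraries, DESeq2 1.42.0, sample-weighted limma-voom (limma 3.58.1), a model of the 8 compared libraries alone, a replicate block, and each library left out in turn. CPM on library totals for the number of genes detected was added after the data had been seen.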

Additional observations from a re-analysis of the deposited data

Results flagged for a closer look

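In 11 of 72 groups of 4 values checked, 1 library stood apart from the other 3 by Dixon's criterion. Chance flags about 1 in 20 groups of independent, normally distributed values. Most groups checked here were CPM of genes picked by this comparison, measured in the same libraries, so that rate does not apply to them. At 1dpa, replicate 2 was the high library for 4 of the genes that fell: 58.2 CPM of LOC112576458, where the other 3 libraries had 0.311 to 2.14 CPM, LOC112563139 at 28.3 CPM against 1.96 to 4.41 CPM, LOC112560214 at 4.49 CPM against 0.155 to 0.420 CPM, and LOC112571947 at 24.2 CPM against 1.19 to 3.57 CPM. Replicate 4 was high for LOC112570700, a gene that rose, at 1773 CPM against 1007 to 1083 CPM.

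In the Intact group, replicate 1 was high for LOC112562530, at 35627 CPM against 26279 to 27418 CPM, and for LOC112559381, at 5857 CPM against 4281 to 4534 CPM. Replicate 4 was high for 3 genes. LOC112553742 stood at 647.4 CPM against 167.5 to 238.1 CPM, LOC112567263 at 16.1 CPM against 0.913 to 1.81 CPM, and LOC112566809 at 0.476 CPM against 0.110 to 0.130 CPM. In Intact replicate 3 the 10 most abundant genes held 12.4% of the counts, against 11.1% to 11.2% in the others.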

How the results depend on the processing

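The count of 13330 calls lay between 12530 and 13760 over the alternatives that kept all libraries, and the counts in each direction, of changes of 8-fold or more and of calls against 3dpa stayed within 1.5 times their values. With the replicate block 13340 genes were called against Intact and 9625 in place of 9630 against 3dpa, and no call of a named gene changed. Scaling by library size alone called 5304 rises and 7895 falls against Intact, 40.2% of calls upward in place of 48.4%, and 36.1% in place of 47.9% against 3dpa. Over 35 named genes, all 559 values that alternatives gave kept their direction and their call. Some moved by more than 1.5 times in fold. Without 1dpa replicate 2 all 10 of the largest falls did, such as LOC112560214 from -8.90 to -11.08 on the log2 scale. So did LOC112562530, from -8.26 to -9.18. Without Intact replicate 4, LOC112553742 moved to -8.23, and LOC112566809 and LOC112567263 moved as given above. With limma-voom 7 of the 10 largest falls moved (-10.82 to -9.45), as did LOC112554477 to 10.71. The 4 named genes seen in only 1 group moved with both limma-voom and DESeq2. DESeq2 gave no adjusted p for LOC112567738. Leaving out a library left 3 against 4, where the exact test cannot pass the threshold (p = 0.0571). The differences then lay between -4.04 and -3.45 percentage points for the 10 most abundant genes, -2.24 and -1.59 for the 100 most abundant, and -960.8 and -874.4 for the number of genes detected. Asking for 10 counts in place of 3 in each library left 6 of the 26 genes seen only at 1dpa and 21 of the 58 seen only in Intact. Same-numbered libraries correlated at -0.10 to 0.03 across genes, which gave no sign of pairs but cannot show that there were none. The 1dpa library with the least depth had 19.3 counts for each CPM, which limits the precision of the lowest genes.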
